A study of Mus musculus with 2 samples.

Results

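The genes described here are 10 imprinted genes of the mouse, Meg3, Rian, Nnat, Peg3, Plagl1, Grb10, Cdkn1c, Dlk1, Igf2 and Snrpn, taken from the 33038 genes listed in single-cell counts of pancreatic islets. They were found by gene symbol, and library 1 had rows for 9 of them and library 2 for all 10. The islets came from control male C57BL/6J mice 8 weeks old, an inbred wild-type strain, and were handpicked and dissociated. RevGel-seq, which pairs each cell with a barcoded bead inside a gel that can be melted again, was then run on 2 technical replicates of 10000 input cells each. The labels give 1 group, control islets, so the comparisons below are between kinds of cells within it. The p-values measure the spread between 2 libraries of one islet preparation and not the spread between animals.

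In imprinted genes, marks laid down in the egg or the sperm silence the copy inherited from one parent, so that mainly the other copy is transcribed. Many of them control fetal growth, nutrient use and hormone secretion, and several lie in clusters that share one control region. Islets are a common place to study them because human disorders of imprinting can present as neonatal diabetes or as excess insulin. The counts carry no information on the parental allele, so what follows describes levels of RNA and not imprinting itself.

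Cells were grouped by which of insulin (Ins1 and Ins2 together), glucagon (Gcg), somatostatin (Sst) and pancreatic polypeptide (Ppy) reached 1% of their UMIs (unique molecular identifiers, each counting 1 captured transcript). Of 1483 cells, 372 held insulin only, 356 Gcg only, 58 Sst only, 122 Ppy only, 151 Gcg and Ppy, 148 Sst and Ppy, and 183 none of the hormones. The remaining cells were too few for a group. Library 1 held 15931154 UMIs in 735 cells and library 2 held 17440292 in 748, and the tables shared 0 barcodes. The smallest sums were those of Sst only, from 35 and 23 cells. The beta, alpha, delta and gamma marker lists were each highest in the group with that hormone alone, but they were not confined to it. The summed level of the beta cell list was 55617 and 57159 CPM in insulin only and at most 15541 CPM in any other group. That of the alpha list was 47908 and 49512 CPM in Gcg only and 25573 and 25025 CPM in Gcg and Ppy, against at most 3445 CPM in the other single-hormone groups. The delta list summed to 7056 and 6936 CPM in Sst only and to at most 1392 CPM in the other single-hormone groups, mostly from Rbp4, with 1 and 2 of its 7 markers at 0 in Sst only. Hhex, a delta cell factor of that list, stood at 316 and 479 CPM in Sst only and at no more than 7.73 CPM in the other single-hormone groups. The gamma list summed to 55182 and 42635 CPM in Ppy only, 13910 and 14472 CPM in Sst only and 7294 and 6966 CPM in Gcg only. In Ppy only it came mostly from Pyy, at 53889 and 41295 CPM, while Aqp3 and Ptgfr of that list were at 0 there. CPM here means UMIs of a gene per 1000000 UMIs of all genes other than Ins1, Ins2, Gcg, Sst and Ppy, summed over the cells of a group in a library.

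Nnat, Grb10 and Dlk1 separated the hormone groups, while Meg3, Rian and Peg3 separated endocrine cells from the cells with no hormone. Nnat RNA was found mainly in insulin and Sst cells, with a UMI in 126 of 372 insulin only cells and 40 of 58 Sst only cells. It was close to absent from Gcg and Ppy cells, a log2 difference of -4.31 ± 0.68 (SE) for Gcg only against insulin only. Grb10 had the opposite pattern, with 3.56 ± 0.21 (SE) on the log2 scale for the same pair of groups. Dlk1 was found almost wholly in Sst cells, and there in 8 of 58 cells. Plagl1 was higher in Ppy cells than in insulin or Gcg cells, and Peg3 was lower in Sst cells than in the other single-hormone groups. Igf2, a fetal growth factor, had 2 UMIs in 1 cell of both libraries together, and 9 of the 10 genes passed the filter on low counts and were tested.

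The bases just before the start sites of the 3 genes that differed most, with those of Peg3 for comparison, show their content of CpG, the dinucleotide at which imprinting marks are set. Each window holds the 250 bases before a RefSeq start site on GRCm38.p6, read 5′ to 3′ on the strand of the gene, with every CpG in capitals. The Nnat window is chr2:157559828-157560077 (plus strand), that of Dlk1 chr12:109452573-109452822 (plus strand), those of Grb10 chr11:12037421-12037670 (minus strand) and chr11:12027972-12028221 (minus strand), and that of Peg3 chr7:6730420-6730669 (minus strand).
Nnat: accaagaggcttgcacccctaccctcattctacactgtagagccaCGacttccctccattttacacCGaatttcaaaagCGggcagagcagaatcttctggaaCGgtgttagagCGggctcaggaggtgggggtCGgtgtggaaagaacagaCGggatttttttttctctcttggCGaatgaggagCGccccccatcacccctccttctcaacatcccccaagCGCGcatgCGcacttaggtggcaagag
Dlk1: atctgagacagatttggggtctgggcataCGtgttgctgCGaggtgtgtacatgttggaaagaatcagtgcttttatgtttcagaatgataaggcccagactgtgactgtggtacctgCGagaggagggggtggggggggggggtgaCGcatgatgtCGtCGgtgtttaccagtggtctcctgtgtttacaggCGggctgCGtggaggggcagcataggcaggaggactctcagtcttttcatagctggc
Grb10, first start site: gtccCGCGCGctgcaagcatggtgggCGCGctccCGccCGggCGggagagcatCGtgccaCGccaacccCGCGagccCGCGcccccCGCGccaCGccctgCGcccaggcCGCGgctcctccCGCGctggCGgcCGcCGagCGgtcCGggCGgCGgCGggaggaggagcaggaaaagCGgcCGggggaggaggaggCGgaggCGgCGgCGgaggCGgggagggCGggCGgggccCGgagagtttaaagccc
Grb10, other start site: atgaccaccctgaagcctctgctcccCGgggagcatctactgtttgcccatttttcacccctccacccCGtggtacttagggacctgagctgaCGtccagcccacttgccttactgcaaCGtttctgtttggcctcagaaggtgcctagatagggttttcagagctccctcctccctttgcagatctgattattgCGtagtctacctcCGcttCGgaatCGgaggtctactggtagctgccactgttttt
Peg3: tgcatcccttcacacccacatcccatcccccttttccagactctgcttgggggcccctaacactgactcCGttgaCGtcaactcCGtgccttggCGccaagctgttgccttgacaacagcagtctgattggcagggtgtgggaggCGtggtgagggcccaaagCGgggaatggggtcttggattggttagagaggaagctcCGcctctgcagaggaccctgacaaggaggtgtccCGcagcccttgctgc
The Nnat window holds 12 CpG, that of Dlk1 8, the first Grb10 window 40, the other Grb10 window 8 and that of Peg3 8, against a median of 6 over all 32851 RefSeq windows of this length. More CpG than in 98.7% of those windows was thus found at the first Grb10 start site. Of the 10 genes, 9 had a window and 17 windows were listed. Methylation was not measured, and the windows are given as the sequence behind the genes, without a link to their levels.

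**Figure D1:**
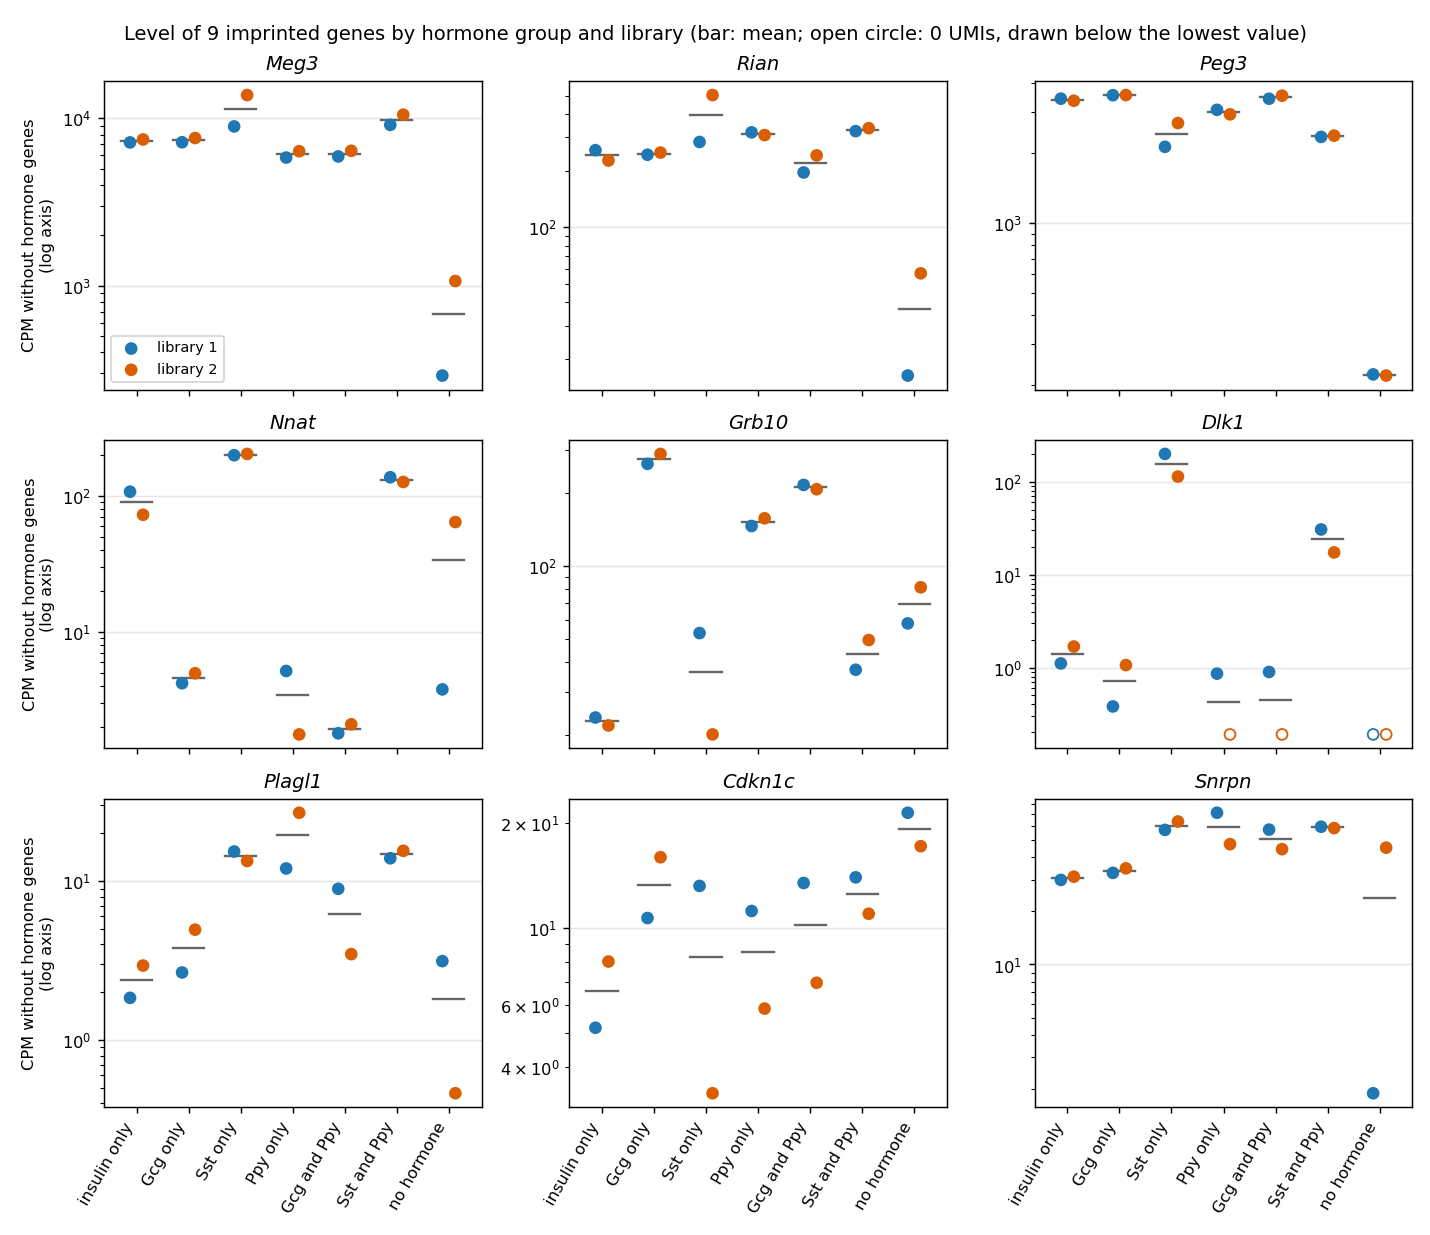
Level of 9 imprinted genes in CPM without the hormone genes (log axis) in 7 groups of cells (horizontal axis), with 1 point per library, a bar at the mean of both libraries and open circles for 0 UMIs. Nnat is higher and Grb10 lower in insulin only than in Gcg only, Dlk1 stands at 17.4 CPM or more in the groups with Sst and at 1.68 CPM or less elsewhere, and Meg3, Rian and Peg3 are lowest in the cells with no hormone.

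Meg3 is a maternally expressed long noncoding RNA of the Dlk1-Dio3 cluster on chromosome 12 (chr12:109541001-109571726, plus strand, GRCm38), and Rian (chr12:109603940-109661716) is a noncoding RNA downstream of it that hosts small nucleolar RNAs. Meg3 stood at 7177 and 7474 CPM in insulin only (library 1 and library 2), 7195 and 7624 in Gcg only, 8944 and 13771 in Sst only and 5827 and 6358 in Ppy only. In Gcg and Ppy it was 5919 and 6398 CPM, and in Sst and Ppy 9137 and 10513 CPM. The libraries agreed closely for insulin and Gcg cells and were far apart for Sst only. In the cells with no hormone Meg3 was at 290.5 and 1066 CPM, below every group with a hormone in both libraries. The mean of the 4 single-hormone groups was above the cells with no hormone by 3.43 ± 0.36 (SE) on the log2 scale (edgeR quasi-likelihood test, adjusted p = 9.23e-07). None of the 6 pairs of single-hormone groups passed the test for Meg3, whose largest difference was -0.79 ± 0.36 for Ppy only against Sst only (adjusted p = 0.204).

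Rian stood at 257 and 226 CPM in insulin only, 243 and 249 in Gcg only, 283 and 503 in Sst only, 319 and 308 in Ppy only and 16.3 and 57.0 in cells with no hormone. The single-hormone groups exceeded the cells with no hormone by 2.84 ± 0.30 (SE) on the log2 scale (edgeR, adjusted p = 1.07e-06), and no pair of single-hormone groups passed. In Ppy only Rian was above and Meg3 below insulin only in both libraries. From cell to cell within a group and library, Spearman's rho between the CPM of Meg3 and Rian lay between 0.20 in Gcg only and 0.68 in Ppy only, both in library 1 (182 and 54 cells). Meg3 and Malat1, a nuclear RNA outside the cluster, gave 0.29 and 0.31 over the same cells. These coefficients share each cell's depth and are given as a description. Mirg, the next noncoding RNA of the cluster, was at 43.0 ± 2.9 CPM (SD, n = 2 libraries) in insulin only, 28.8 ± 6.8 in Gcg only, 72.0 ± 2.4 in Sst only, 48.9 ± 7.2 in Ppy only and 2.86 ± 3.16 in cells with no hormone. Of the protein-coding genes of the cluster other than Dlk1, Rtl1 had 66 UMIs in all, Begain 37, of which 35 were in the 2 cells described next, and Dio3 1.

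The spread of Meg3 and Rian in cells with no hormone rested on 2 cells of library 2. These held UMIs of both Sox10 and Cdh19, glial genes, and also of Snap25. They held 1046 and 702 UMIs of Meg3, against 554 in the other 90 cells of that group and library. Their Meg3 level, 5903 and 7316 CPM, lay within the range of the groups with a hormone. Without these 2 cells Meg3 was at 290.5 and 294 CPM and Rian at 16.3 and 11.1 CPM in the cells with no hormone, so that the libraries lay close together. Even so, 69.5% and 77.1% of the remaining Meg3 UMIs lay in 3 cells of each library. Meg3 was at 25.4 and 57.2 CPM in cells led by endothelial markers and at 47.2 and 51.0 CPM in those led by leukocyte markers. The difference between the single-hormone groups and the cells with no hormone was refitted without the 2 cells. It was 4.64 ± 0.14 (SE) for Meg3 and 4.31 ± 0.22 for Rian on the log2 scale (edgeR, adjusted p = 4.58e-15 and 2.27e-12). In that fit Meg3 was also higher in Sst only than in insulin only (0.47 ± 0.13, adjusted p = 0.0169) and than in Gcg only (0.49 ± 0.13, adjusted p = 0.0142), and lower in Ppy only than in Sst only (-0.79 ± 0.13, adjusted p = 0.00036). Over all alternatives the adjusted p of these 3 differences was under the threshold in 2 or 3 of 12, so they rest on the removal of these cells or on the settings named in the closing section.

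Peg3 encodes a large paternally expressed zinc finger protein of chromosome 7 (chr7:6703892-6730431, minus strand). It was at 3429 and 3359 CPM in insulin only, 3548 and 3554 in Gcg only, 3069.8 and 2935 in Ppy only and 2127 and 2692 in Sst only. Both Sst only libraries lay below every library of the other single-hormone groups. The difference was -0.65 ± 0.10 (SE) on the log2 scale against insulin only (edgeR, adjusted p = 0.000346) and -0.68 ± 0.10 against Gcg only (adjusted p = 0.000246), and Ppy only exceeded Sst only by 0.42 ± 0.10 (adjusted p = 0.0145). The last of these was lost in 4 of 12 alternatives, and the first with 23 cells per sum (adjusted p = 0.0661). Sst and Ppy cells, at 2347 and 2376 CPM, had the level of Sst only, and Gcg and Ppy cells, at 3427 and 3532 CPM, had that of Gcg only. In cells with no hormone Peg3 was at 223 and 220.05 CPM, lower by 3.70 ± 0.10 (SE) on the log2 scale (edgeR, adjusted p = 1.40e-12). The endothelial list summed to 624 CPM in library 1 and 53.6 CPM in library 2 of Sst only, with 1 of 35 and 0 of 23 cells holding 10 or more of its UMIs. Without such cells Peg3 kept its calls. In library 2 of the cells with no hormone, the 2 cells with Sox10 and Cdh19 held 315 of the 475 UMIs of Peg3. Without them Peg3 was at 84.9 CPM in that library, against 223 CPM in library 1, and the difference was 4.23 ± 0.23. In that fit Peg3 in Sst only gave -0.65 against insulin only and -0.68 against Gcg only, each with an SE of 0.22. Both calls then lay near the threshold (edgeR, adjusted p = 0.0452 and 0.0394). Ppy only against Sst only stayed at 0.42, with an SE of 0.22, and did not pass (adjusted p = 0.251). The 2 cells are in none of the single-hormone groups, and mainly the SE moved. The SE of 0.10 in the main fit thus depended on these 2 cells.

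Plagl1, also called Zac1, is a zinc finger transcription factor (chr10:13060504-13131694, plus strand) whose human counterpart lies in the region linked to transient neonatal diabetes. Its counts were low, 177 UMIs in all. It stood at 12.0 and 27.0 CPM in Ppy only, 15.4 and 13.4 in Sst only, 1.85 and 2.95 in insulin only and 2.67 and 4.96 in Gcg only. Both libraries of Ppy only and Sst only thus lay above all libraries of insulin only and Gcg only. The Sst only values were near the floor, from 7 UMIs in 2 cells and 4 UMIs in 4 cells. There 3 UMIs would be 6.59 and 10.1 CPM. In library 2 of Ppy only, 3 cells held 20 of the 46 UMIs. Ppy only exceeded insulin only by 2.97 ± 0.63 (SE) on the log2 scale (edgeR, adjusted p = 0.00346) and Gcg only by 2.33 ± 0.59 (adjusted p = 0.0198), the latter lost at a hormone threshold of 0.5% (adjusted p = 0.0675). For Sst only the differences were 2.42 ± 0.81 (adjusted p = 0.0581) and 1.78 ± 0.76 (adjusted p = 0.155), which did not pass. In Sst and Ppy it was 13.95 and 15.5 CPM, in Gcg and Ppy 8.96 and 3.48 CPM, and in cells with no hormone 3.14 and 0.463 CPM, from 6 UMIs in all. The single-hormone groups exceeded the last by 2.00 ± 0.68 on the log2 scale (edgeR, adjusted p = 0.0190), with 0.65 in library 1 alone and 2.54 in library 2 alone.

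Grb10 is an adaptor protein that binds the insulin and IGF1 receptors and dampens their signal (chr11:11930508-12038683, minus strand). It was at 264 and 290.1 CPM in Gcg only, 216 and 207 in Gcg and Ppy, 146 and 157 in Ppy only, 52.7 and 20.1 in Sst only, 37.2 and 49.4 in Sst and Ppy, and 23.6 and 21.9 in insulin only, with 57.8 and 81.5 CPM in cells with no hormone. The libraries of Gcg only, Gcg and Ppy, and Ppy only did not overlap with each other or with any other group, whereas those of Sst only spanned the values of insulin only and of Sst and Ppy. Against insulin only, Gcg only was higher by 3.56 ± 0.21 (SE) on the log2 scale (edgeR, adjusted p = 1.02e-08) and Ppy only by 2.68 ± 0.22 (adjusted p = 4.59e-07). Ppy only was lower than Gcg only by 0.89 on that scale (SE 0.18, adjusted p = 0.00592, but 0.0587 with 23 cells per sum), and Sst only was lower than Gcg only by 2.94 (SE 0.27, adjusted p = 2.80e-06). Ppy only exceeded Sst only by 2.05 ± 0.29 (adjusted p = 0.000254). Sst only and insulin only differed by 0.62 ± 0.34, which did not pass (adjusted p = 0.271).

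Per cell, 306 of 356 Gcg only cells held a UMI of Grb10, and 126 held 5 or more. In insulin only it was 74 of 372 cells, with 2 at 5 or more. At a fixed depth of 2000 UMIs per cell without the hormones, 38.5% and 37.4% of Gcg only cells had a UMI (exact 95% intervals 31.4 to 45.9% and 30.2 to 45.0%), against 6.04% and 3.16% of insulin only cells (3.06 to 10.6% and 1.17 to 6.75%). In Sst only of library 2 it was 0 of 23 cells at that depth, where 3 cells would be 13.04%, and 5 of 23 at full depth. Among cells with no hormone, Grb10 was at 122 and 161 CPM in 27 and 33 cells led by endothelial markers and at 1.69 and 4.64 CPM in 42 and 41 cells led by leukocyte markers. These subsets were drawn after values had been seen and were not tested.

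**Figure D2:**
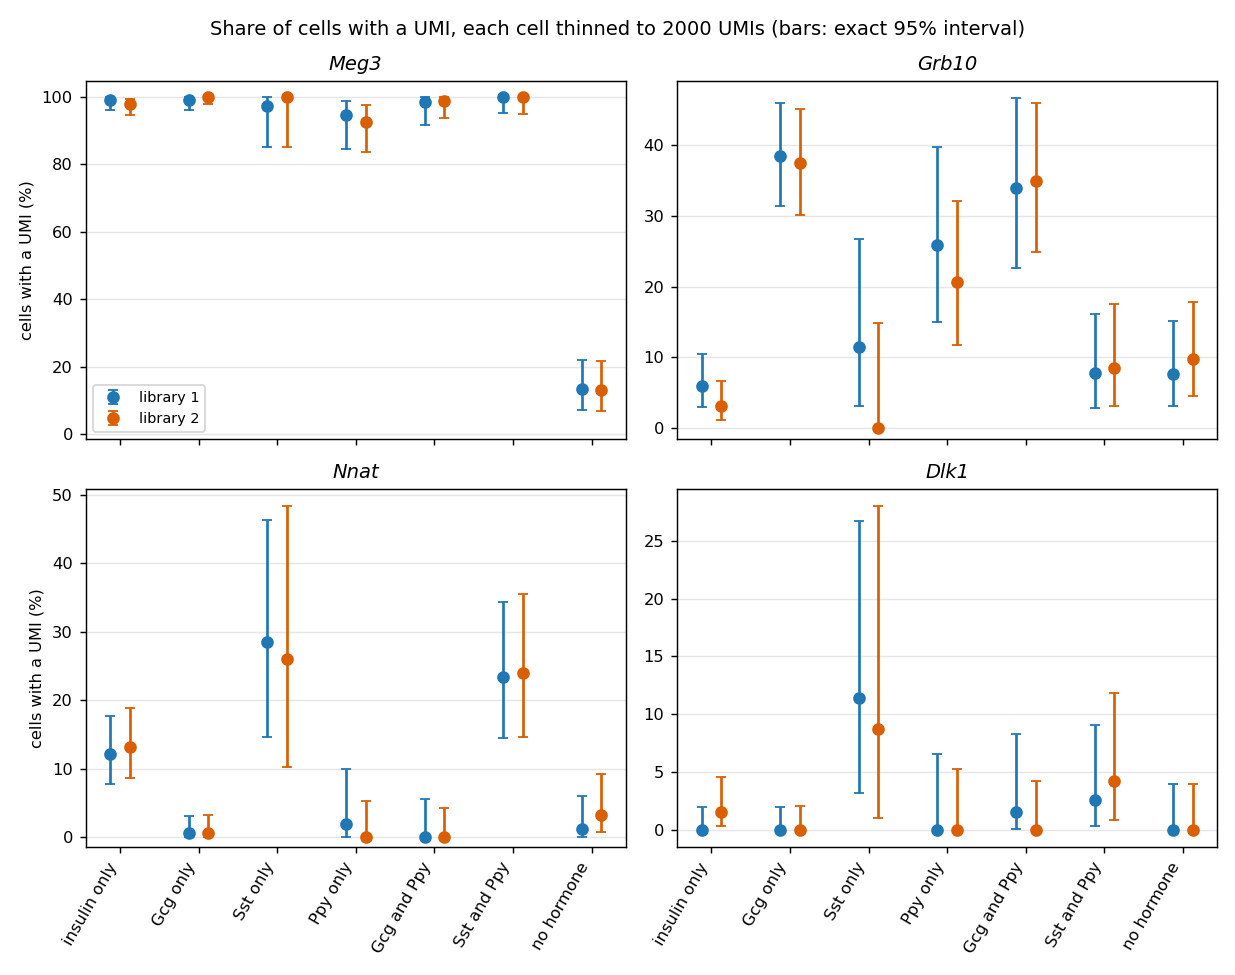
Share of cells in percent (vertical axis) with at least 1 UMI of Meg3, Grb10, Nnat or Dlk1 in 7 groups (horizontal axis), each cell thinned to 2000 UMIs without the hormones, with 1 point per library and exact 95% intervals that cover counting error only. Meg3 was found in 92.6% or more of the cells of every group with a hormone and in 13.2% and 13.04% of cells with no hormone, and the shares of Grb10 and Nnat are high in different groups.

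Nnat, or neuronatin, is a small paternally expressed protein of the endoplasmic reticulum membrane that takes part in the processing of preproinsulin (chr2:157560078-157562522, plus strand). Nnat was at 108 and 72.9 CPM in insulin only, 199.97 and 204 in Sst only, 138 and 127 in Sst and Ppy, 4.19 and 4.96 in Gcg only, 5.16 and 1.76 in Ppy only and 1.79 and 2.09 in Gcg and Ppy. The insulin and Sst groups stood above the Gcg and Ppy groups in both libraries with no overlap. On the log2 scale Gcg only was lower than insulin only by 4.31 (SE 0.68, edgeR adjusted p = 0.000215) and Ppy only by 4.86 (SE 0.84, adjusted p = 0.000645). Sst only exceeded Gcg only by 5.31 ± 0.72 (adjusted p = 0.000118), and Ppy only was lower than Sst only by 5.86 (SE 0.86, adjusted p = 0.000377). Sst only was above insulin only in both libraries, by 1.00 ± 0.53, without passing (adjusted p = 0.252). That difference passed in 3 of 12 alternatives, with adjusted p = 0.00248 once the 2 cells with Sox10 and Cdh19 were left out and a range of 0.00213 to 0.626 over all of them. Those 2 cells are in neither group. Without them the difference stayed at 1.00, and its SE went from 0.53 to 0.21.

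Within the insulin only group Nnat was uneven. A UMI was found in 126 of 372 cells, and 37 cells (9.95%) with 5 or more UMIs held 69.2% of all 465. The median cell of both libraries had 0 UMIs, and the 90th percentile was 328 and 323 CPM. In Gcg only 20 of 356 cells had a UMI and none had 5, at median depths of 12693 and 14560 UMIs without the hormones against 11753 and 10188 in insulin only. Nnat in Gcg only was 3.89% and 6.81% of its level in insulin only. In cells with no hormone Nnat was at 3.77 and 64.4 CPM, and the 2 cells with Sox10 and Cdh19 held 128 of the 139 UMIs of library 2. Without them it was 3.77 and 5.83 CPM, and the comparison of the single-hormone groups with the cells with no hormone went from -0.75 ± 0.52 (SE, edgeR adjusted p = 0.228) to 2.10 ± 0.35 on the log2 scale (adjusted p = 3.58e-05).

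Dlk1 encodes a paternally expressed membrane protein of the Notch ligand type that also exists in a shed form (chr12:109452823-109463336, plus strand), upstream of Meg3 in the same cluster. It was at 199.97 and 114 CPM in Sst only and 30.7 and 17.4 in Sst and Ppy. Elsewhere it was at 1.11 and 1.68 CPM in insulin only, 0.381 and 1.06 in Gcg only, 0.859 and 0 in Ppy only, 0.896 and 0 in Gcg and Ppy, and 0 and 0 in cells with no hormone. The Sst only libraries stood above all others and those of Sst and Ppy came next, without overlap. edgeR gave 6.61 ± 0.59 (SE) on the log2 scale for Sst only against insulin only (adjusted p = 3.30e-06), 7.49 ± 0.64 against Gcg only (adjusted p = 2.19e-06) and -8.43 ± 0.77 for Ppy only against Sst only (adjusted p = 6.14e-06). Over the alternatives these ranged from 3.10 to 8.78, from 4.26 to 8.78 and from -10.67 to -8.01, all past the threshold, and with library 1 left out they were 5.15, 5.53 and -6.42. By summed counts, the 125 UMIs of Sst only against 1 UMI of Ppy only gave a ratio of 476 with a counting interval of 83.9 to 18951. Against the cells with no hormone the ratio of summed counts was at least 207, taking 3 UMIs over that group as the floor. Both figures treat each UMI as independent, although 119 of the 125 came from 6 cells. They thus do not cover the spread between cells and do not bound expression.

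Few cells carried these UMIs. In Sst only, 5 of 35 and 3 of 23 cells had a UMI of Dlk1, and 6 cells with 5 or more held 119 of 125. In Sst and Ppy it was 12 of 148 cells, 3 of them with 5 or more. The highest cell held 34, in library 1 of Sst only. In cells with no hormone it was 0 of 91 and 0 of 92, and taking 3 cells as the limit of a count of 0 allows shares of cells with a UMI of up to 3.30% and 3.26%, which does not bound the cells that express the gene. Dlk1 in Sst and Ppy was lower than in Sst only by 2.69 on the log2 scale (SE 0.46), by 2.62 in library 1 and 2.59 in library 2, but did not pass (edgeR, adjusted p = 0.151). It passed in 3 of 12 alternatives, with adjusted p = 0.00659 by DESeq2 and a range of 3.17e-06 to 1.

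**Figure D3:**
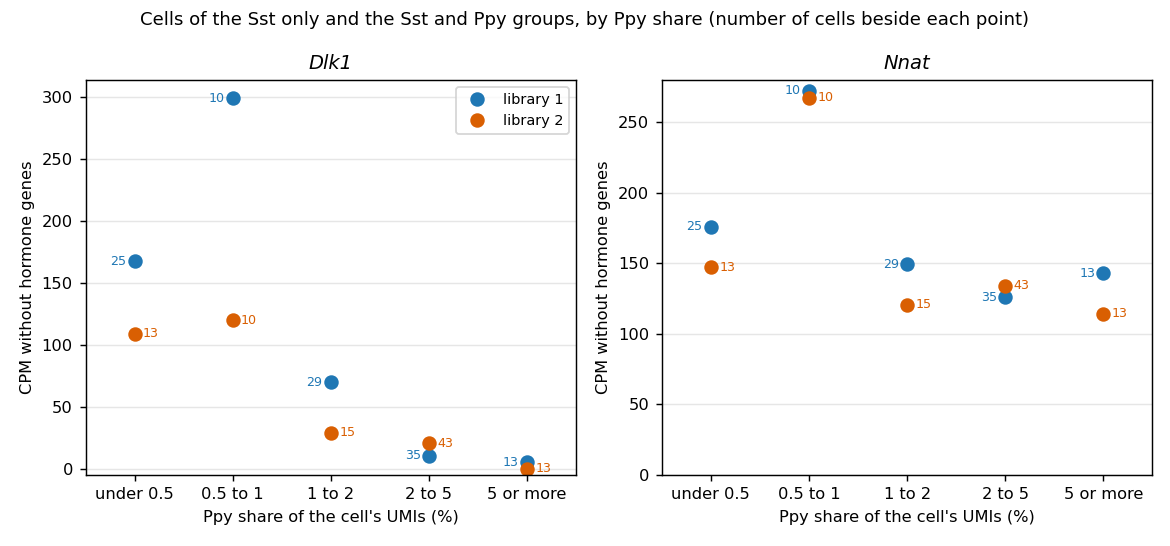
Summed level of Dlk1 (left) and Nnat (right) in CPM without the hormone genes (vertical axes, linear) for cells of the Sst only and the Sst and Ppy groups, split by the share of Ppy in the cell's UMIs (horizontal axes), with 1 point per library and the number of cells beside it. Dlk1 is at 167 and 109 CPM in cells under 0.5% Ppy and at 4.93 and 0 CPM in those at 5% or more, while Nnat is at 176 and 147 CPM in the first and 143 and 114 CPM in the last.

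From bin to bin of rising Ppy share Dlk1 went from 167 and 109 CPM (25 and 13 cells) to 299 and 120 (10 and 10 cells) at 0.5 to 1%, 69.5 and 29.0 at 1 to 2%, 10.3 and 20.3 at 2 to 5% and 4.93 and 0 CPM (13 and 13 cells) above. Most bins held under 20 cells. The value of 299 CPM came from 1 cell, as did that of 109 CPM. In library 1 the bins with 20 cells or more gave 167, 69.5 and 10.3 CPM, and library 2 had 1 such bin. These 3 values also rested on few cells, with 57, 27 and 5 UMIs in 16%, 13.8% and 5.71% of the cells. Of the 27 UMIs, 20 came from 1 cell. Nnat lay between 114 and 272 CPM in all 5 bins of both libraries. The median share of Sst over the same cells was 9.70% and 10.47% in the lowest bin and 6.80% and 3.56% in the highest. In the groups with Sst the acinar list was also high, at 312 and 154 CPM in Sst only and 275 and 235 CPM in Sst and Ppy against at most 22.0 CPM in every other group. Cela1 made up 310 and 151 CPM of that in Sst only, and 6 of the 8 acinar markers were at 0 in each library. Its part in the levels of Dlk1 was not tested.

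Cdkn1c encodes p57, an inhibitor of cyclin-dependent kinases expressed from the maternal copy (chr7:143458339-143461050, minus strand). It was low throughout, at 5.17 and 8.00 CPM in insulin only, 10.7 and 15.9 in Gcg only, 13.2 and 3.35 in Sst only, 11.2 and 5.86 in Ppy only and 21.4 and 17.1 in cells with no hormone. In Gcg and Ppy it was 13.4 and 6.95 CPM and in Sst and Ppy 13.95 and 10.97 CPM. The libraries of the cells with no hormone lay above those of every group with a hormone. No pair of single-hormone groups passed. The cells with no hormone were above the single-hormone groups, which were lower by 1.17 on the log2 scale (SE 0.35, edgeR adjusted p = 0.0102). Within them Cdkn1c was at 34.6 and 29.9 CPM in the cells led by endothelial markers and at 1.69 and 1.55 CPM in those led by leukocyte markers, from 1 UMI in each library. It was at 128 and 144 CPM in 7 and 2 cells led by stellate or pericyte markers, from 13 and 3 UMIs.

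Snrpn encodes a protein of the spliceosome and lies in the cluster linked to Prader-Willi syndrome in humans (chr7:59982495-60140219, minus strand). Its exons overlap on the same strand with those of Snurf, which had 0 UMIs, and of Gm38393, which had 188, so part of its reads may have been counted there. It stood at 29.9 and 31.2 CPM in insulin only, 32.8 and 34.7 in Gcg only, 57.1 and 63.7 in Sst only, 71.3 and 47.5 in Ppy only, 57.4 and 44.5 in Gcg and Ppy and 59.5 and 58.5 in Sst and Ppy. Both libraries of every group with Sst or Ppy lay above those of insulin only and Gcg only. For Sst only and Ppy only these differences were 0.70 to 0.89 on the log2 scale and did not pass (edgeR adjusted p from 0.289 to 0.572, SE 0.53 to 0.67). Gcg and Ppy exceeded Gcg only by 0.58 ± 0.55, which did not pass either (adjusted p = 0.987). In cells with no hormone Snrpn was at 1.89 and 45.4 CPM, with 90 of the 98 UMIs of library 2 in the 2 cells with Sox10 and Cdh19. Once these were left out, Ppy only passed against insulin only (0.88 ± 0.23, adjusted p = 0.00859) and against Gcg only (0.77 ± 0.23, adjusted p = 0.0314), and the single-hormone groups passed against cells with no hormone (3.65 ± 0.33, adjusted p = 1.02e-08). Over all alternatives the adjusted p of the first of these ranged from 0.00859 to 0.518. The 2 cells are in none of the single-hormone groups. With them the 2 Ppy only differences were 0.89 ± 0.54 and 0.78 ± 0.53, so that mainly the SE moved.

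**Figure D4:**
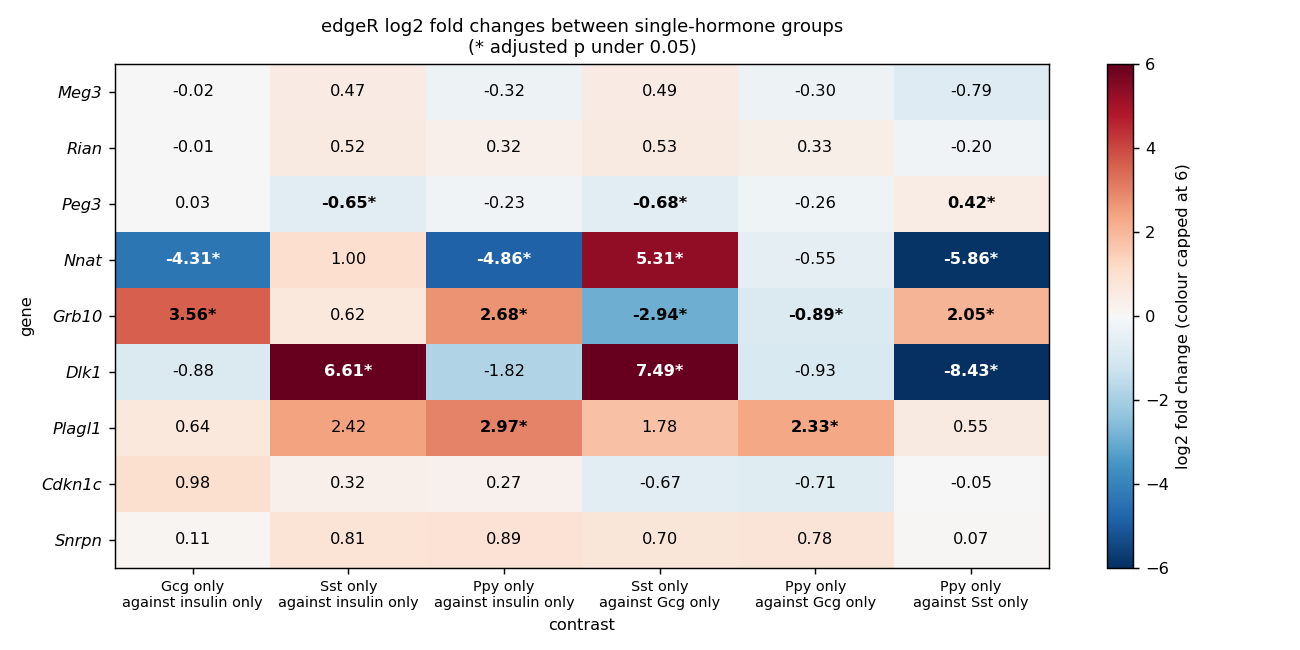
Log2 fold changes of 9 imprinted genes (rows) in the 6 comparisons between single-hormone groups (columns), with the value printed in each field, colour for its size and direction (capped at 6) and a star for an edgeR adjusted p under 0.05. Nnat, Grb10 and Dlk1 carry the large values, Peg3 passes only in the 3 comparisons with Sst only, and Meg3, Rian, Cdkn1c and Snrpn carry no star.

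Counted over the 9 genes tested, Gcg only against insulin only gave 1 higher (Grb10) and 1 lower (Nnat), where 12.2% of all 14955 genes tested were called higher and 12.8% lower. In Sst only against insulin only it was 1 higher (Dlk1) and 1 lower (Peg3), with 6.97% and 7.48% of all genes. Ppy only against insulin only gave 2 higher (Grb10, Plagl1) and 1 lower (Nnat), with 9.87% and 10.3%. For Sst only against Gcg only it was 2 higher (Dlk1, Nnat) and 2 lower (Grb10, Peg3), with 6.31% and 6.01%. Ppy only against Gcg only gave 1 higher (Plagl1) and 1 lower (Grb10), with 4.77% and 4.72%, and Ppy only against Sst only gave 2 higher (Grb10, Peg3) and 2 lower (Dlk1, Nnat), with 4.41% and 4.67%. The comparison of the single-hormone groups with the cells with no hormone called 5 higher (Dlk1, Meg3, Peg3, Plagl1, Rian) and 1 lower (Cdkn1c), where 26.3% and 33.4% of all genes were called. The fitted value of Dlk1 there, 5.25 ± 1.60 (SE, adjusted p = 0.0111), was set against a group with 0 UMIs, so it is not a measured fold. These comparisons share groups and are not independent of each other.

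Cells with a second hormone were set against the cells that had the first one alone, to see whether Ppy went with a change in these genes. For Gcg and Ppy against Gcg only 0 of the 9 genes were called by edgeR, where 0.0401% of all genes were, and 1 had an unadjusted p under 0.05 (Grb10, -0.40 ± 0.18 on the log2 scale, adjusted p = 0.866). For Sst and Ppy against Sst only it was again 0 called, with 0.0134% of all genes, and 1 at an unadjusted p under 0.05 (Dlk1, as above). DESeq2 called 0 and 1 of them. The difference between both effects of Ppy, tested as an interaction, called 0 of the 9 (0.0134% of all genes) with 0 at an unadjusted p under 0.05 and 0 by DESeq2. Nnat was lower in both libraries of Gcg and Ppy than in those of Gcg only, from 5 and 25 UMIs, with -1.20 ± 1.49 (SE), and lower in both of Sst and Ppy than in those of Sst only, with -0.58 ± 0.54. Neither difference passed.

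The genes whose levels followed each imprinted gene most closely over the 12 sums of the 6 groups with a hormone, by Pearson's r of log2(CPM + 1), are given as a description, since those sums share groups and libraries. For Nnat they were Mapt (r = 0.99), which encodes the microtubule protein tau, Cnr1 (0.98) and Cdh22 (0.98). Mapt averaged 129 CPM in insulin only and 197 in Sst only against 17.5 in Gcg only and 23.0 in Ppy only. For Grb10 they were Pappa2 (0.99), a protease that cleaves IGF binding proteins, Gadd45b (0.98) and Rab3c (0.98), and Pappa2 averaged 1632 CPM in Gcg only, 949 in Ppy only and 45.8 in insulin only. For Peg3 they were Il6ra (0.97), Wnk4 (0.97) and Zfp568 (0.97), and for Plagl1 Grb14 (0.94), an adaptor of the same family as Grb10, Bambi (0.93) and Klf3 (0.93). Dlk1 was followed by Tcerg1l (0.98), Cacna1i (0.98) and Adamts19 (0.97), Meg3 by Gm49069 (0.97), Sidt1 (0.95) and Ypel3 (0.95), Rian by Tor4a (0.94), Gm10167 (0.93) and Lrp6 (0.93), Snrpn by Iscu (0.96), Gm37928 (0.92) and Itgb1 (0.92), and Cdkn1c by Ccdc138 (0.91), Zfp937 (0.89) and Polr3a (0.89). The 3 genes named for Dlk1 were near the floor. They averaged 9.94, 16.1 and 11.1 CPM in Sst only, where 3 UMIs would be 6.59 and 10.1 CPM in library 1 and library 2.

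A list of 74 genes known as imprinted in at least one tissue of the mouse, the 10 above included, gave the setting of these values. Of the 64 others, 60 had a UMI and 44 passed the filter. In Gcg only against insulin only 12 of the 44 were higher and 8 lower, with a median log2 fold change of -0.03, against 12.2% and 12.8% of all genes. Sst only against insulin only had 8 higher and 6 lower (6.97% and 7.48% of all genes), and Ppy only against insulin only 10 higher and 8 lower (9.87% and 10.3%). Against Gcg only, Sst only had 4 higher and 5 lower (6.31% and 6.01%) and Ppy only 5 higher and 6 lower (4.77% and 4.72%). Ppy only against Sst only had 3 higher and 5 lower (4.41% and 4.67%). In cells with a hormone against those with none, 22 were higher and 10 lower (26.3% and 33.4%). The calls thus went both ways in each comparison.

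By the rule for named genes 22 of them changed at least 2-fold in a pair of single-hormone groups. Gnas, which encodes the stimulatory G protein subunit that raises cAMP, was at 69.7 ± 10.9 CPM (SD, n = 2) in insulin only and 891 ± 27 in Gcg only, 3.64 ± 0.14 higher on the log2 scale (edgeR, adjusted p = 1.42e-10), with 1036 ± 71 CPM in Sst only and 283 ± 13 in Ppy only. These counts are per gene and do not tell the transcripts of Gnas apart, so they are not a level of that subunit alone. Rasgrf1, a Ras exchange factor that responds to calcium, followed the pattern of Nnat, at 198 ± 11 CPM in insulin only and 155 ± 4.2 in Sst only against 2.91 ± 0.89 in Gcg only and 9.83 ± 3.12 in Ppy only. Gcg only was lower than insulin only by 6.08 on the log2 scale (SE 0.27, adjusted p = 4.35e-10). Sgce and Peg10, neighbours in the genome, were both near 0 in insulin cells. Sgce was at 2.95 ± 0.0033 CPM in insulin only and 89.9 ± 9.7 in Gcg only, and Peg10 was at 0.185 ± 0.261 and 57.8 ± 8.5 CPM.

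Ddc, the decarboxylase that makes dopamine and serotonin and the neighbour of Grb10, did not follow it. Ddc was at 711 ± 82 CPM in insulin only, 393 ± 1.3 in Gcg only, 257 ± 54 in Ppy only and 17.8 ± 12.7 in Sst only, where Sst only was lower than insulin only by 5.62 on the log2 scale (SE 0.45, edgeR adjusted p = 6.94e-07). Mest, a protein of the hydrolase fold, was at 78.2 ± 8.0 CPM in Sst only and at most 5.42 ± 3.35 in the other single-hormone groups, the pattern of Dlk1 among the single-hormone groups, and at 50.7 ± 2.0 in Sst and Ppy. Nap1l5, a protein like nucleosome assembly proteins, was at 564 ± 91 CPM in Ppy only and 423 ± 0.57 in Gcg only against 63.0 ± 32.2 in Sst only and 125 ± 45 in insulin only. Blcap, in whose intron Nnat lies on the other strand, was at 82.0 ± 16.8 CPM in insulin only, 65.3 ± 16.5 in Sst only, 44.6 ± 10.8 in Ppy only and 33.0 ± 1.9 in Gcg only. The others named by the rule were Tssc4, Peg13, Zdbf2, Slc38a4, Asb4, Snhg14, Gab1, Zim1, Ndn, Osbpl5, Igf2r, Airn, Slc22a18 and Mirg.

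**Figure D5:**
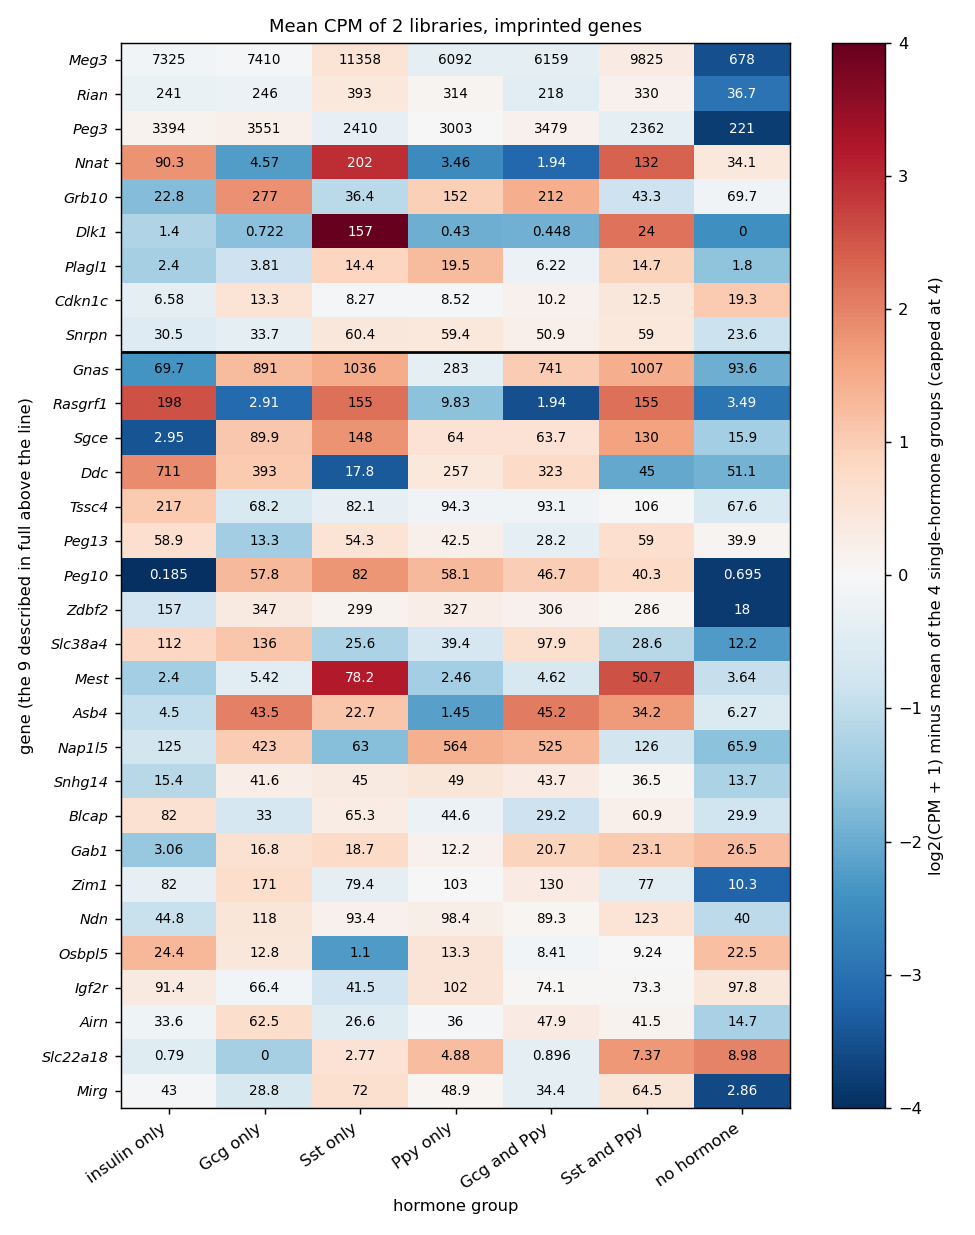
Mean CPM of 2 libraries (printed in each field) of 9 imprinted genes above the line and 22 others of the wider list below it (rows) in 7 groups (columns), with colour for log2(CPM + 1) relative to the mean of the 4 single-hormone groups (capped at 4). Rasgrf1, like Nnat, is higher in insulin only and Sst only than in Gcg only and Ppy only. Among the single-hormone groups Mest, like Dlk1, is highest in Sst only, and Gnas, Sgce and Peg10 are low in insulin only.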

How the data were processed

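The authors deposited 1 table of whole-number UMI counts per library. According to their methods, reads were aligned to exons of GRCm38, deduplicated and assigned to Ensembl genes in Cytonaut, and cell barcodes were picked by the knee method of UMI-tools. Intronic reads are thus absent, and free RNA was judged only from cells that should lack a gene. A gene listed in 1 table was set to 0 in the other. No filter on cells was added, and the lowest cell had 3925 UMIs without the hormone genes. Rows without a gene name numbered 0.

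Counts were summed per library over the cells of 7 hormone groups with at least 10 cells in each library, and the 14 sums were fitted together with edgeR 4.0.16 in R 4.3.3 (TMM, filterByExpr, quasi-likelihood test, Benjamini-Hochberg over 14955 genes, threshold 0.05, 7 residual degrees of freedom). Ins1, Ins2, Gcg, Sst and Ppy were left out of totals and tests because they define the groups. SEs are the log2 fold change over the square root of F. Levels are means ± SD of 2 libraries, and exact intervals cover counting error only. The fit was tested on simulated data. Scrublet in scanpy 1.11.5 marked 16 cells as doublets, which were removed in an alternative, and DESeq2 1.42.0 was another.

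Sums of 1 library share their preparation, and the labels number the libraries. The differences between libraries correlated across genes by a median of 0.0054 over 21 pairs of groups (range -0.057 to 0.11), so the fit without the library as a block was kept as the main one. The 10 genes, the marker lists and the wider imprinted list were chosen with earlier results of these data known. Named from the wider list were at most 25 genes with a log2 fold change of at least 1 and an adjusted p under 0.05 in a pair of single-hormone groups, with 1 direction in both libraries, by smallest adjusted p. For each gene tested, the 3 genes most like it by Pearson's r were named. Coordinates are from the GENCODE annotation of GRCm38, which held 32971 of the 33038 identifiers, and promoter windows are from RefSeq.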

Additional observations from a re-analysis of the deposited data

How the results depend on the processing

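Of the 23 fold changes called in the 10 comparisons, each fitted under up to 12 alternatives that kept both libraries, 262 of 272 values kept their direction and stayed past the threshold, 9 fell short of it and 1 turned. Each library taken alone gave the direction of the called value in all 46 cases, but 16 of the 46 differed from it by over 1.5 times. With library 1 left out, Nnat was -3.64 for Gcg only against insulin only, Grb10 was -3.88 for Sst only against Gcg only and 2.97 for Ppy only against Sst only, and Dlk1 was 5.15, 5.53, -6.42 and 2.15 in its comparisons with Sst only and with no hormone. With library 2 left out, Nnat was -4.11 and -4.86 for Ppy only against insulin only and Sst only, Plagl1 was 2.09 for Ppy only against insulin only and 0.65 for the single-hormone groups against no hormone, where Meg3 was 4.56, Rian 3.90 and Dlk1 2.32, and Dlk1 was 6.83 and -6.46 for Sst only against Gcg only and Ppy only against Sst only. The values of single libraries are differences of log2 CPM with a prior count of 2, not of the fit, which lowers differences from groups with few UMIs. The alternatives were hormone thresholds of 0.5%, 2% and 5%, totals with the hormone genes, totals without TMM, DESeq2, no filter on low counts, the library as a block, doublets removed and 23 cells per sum, and, chosen after seeing the data, leaving out the 2 cells with Sox10 and Cdh19 or the hormone-bearing cells with 10 or more endothelial UMIs. The number of genes called among the 9 moved by more than 1.5 times in 9 of 120 cases. Without the filter it was 5 in Sst only against insulin only, 6 in Ppy only against insulin only, and 1 in either comparison of a second hormone with the first alone (Meg3 for Gcg and Dlk1 for Sst). Without the 2 cells it was 4 in Sst only against insulin only and 1 in Sst and Ppy against Sst only, where DESeq2 also gave 1. In Ppy only against Gcg only it was 1 at the threshold of 0.5% and 0 with equal cells. In the single-hormone groups against no hormone, Nnat went from below 0 to 2.07 with equal cells and 2.10 without the 2 cells, and Dlk1 to -0.47 at the threshold of 5%. Dlk1 also lost that call at 0.5% and with equal cells. The cause of the other changes was not tested.

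Counts of calls were not recomputed with 1 library left out, since 1 sum per group leaves no residual degrees of freedom, and fold values were given in their place. With the replicate block the number of genes called was the same in all 10 comparisons, for example 4 in Sst only against Gcg only, and it changed no call of the 9 genes. The 58 Sst only cells limit that group, and low counts limit Plagl1, Cdkn1c and Dlk1.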

Other observations

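Cells in which insulin, Gcg or Sst reached the threshold together were too few for a group, and their levels are given without a test, summed over both libraries. In 14 cells with Gcg and Sst, Dlk1 was at 155 CPM, Grb10 at 249.04 CPM and Nnat at 70.7 CPM. The Dlk1 value came from 46 UMIs in 3 of these cells, while Nnat was found in 8 and Grb10 in 14 of them. In 15 cells with Gcg, Sst and Ppy it was 0, 136 and 62.5 CPM in the same order. In 22 cells with insulin and Sst, Nnat was at 135 CPM, Dlk1 at 44.3 CPM and Grb10 at 35.1 CPM. In 20 cells with insulin and Ppy, Nnat was at 73.2 CPM and Grb10 at 88.9 CPM, both above the lower of the levels in insulin only and Ppy only. Scrublet marked as doublets 2 of the 14 cells with Gcg and Sst, 2 of the 20 with insulin and Ppy, 1 of the 15 with Gcg, Sst and Ppy, 3 of 14 with insulin, Sst and Ppy and 0 of the 22 with insulin and Sst, against 0 in the 4 single-hormone groups. It also marked 2 of the 151 cells with Gcg and Ppy, 2 of the 148 with Sst and Ppy and 4 of the 183 with no hormone. Whether these cells are single cells or pairs was not tested.

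Among the cells with no hormone, 4 were led by none of the marker lists. Their summed Meg3 was 4224 and 6951 CPM in library 1 and library 2 and their Peg3 4272 and 1067 CPM, from 2 cells each. In 25 cells led by ductal markers Meg3 was at 740 and 729 CPM, with 96.6% and 96.5% of its UMIs in the top 3 cells of each library.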
